A study of Mus musculus with 35 samples.

Results

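The 8 genes described here act on collagen while it is still inside the cell. They were taken by name and comprised the 3 catalytic alpha subunits of prolyl 4-hydroxylase (P4ha1, P4ha2 and P4ha3), the 3 lysyl hydroxylases (Plod1, Plod2 and Plod3), the collagen chaperone Serpinh1 and the galactosyltransferase Colgalt1. All 8 were among the 44853 genes of the induction table and in the shorter siRNA table, and all 8 passed the filter on low values in both. RNA-seq libraries numbered 35. The induction series used KH2 mouse ES cells, a C57BL/6 x 129/Sv line, carrying a doxycycline (Dox) inducible Gata6 cassette with a 3xHA tag, with 3 libraries from untreated cells (0h) and 3 from each of 6 times in Dox (1 µg/mL), from 16h to 168h. The other samples were 2 libraries of XEN cells, a wild-type extra-embryonic endoderm line of CD1 background that received no Dox, and the siRNA series, in which 1 inducible clone was nucleofected with a control siRNA (siCTL) or with siRNA against Oct4 (siOct4) and collected after 48 hours of Dox, with 6 libraries each. All cells were grown in serum on fibroblast feeders, ES cells with LIF and XEN cells without it, and the feeders were removed by adsorption. No cells kept without Dox for the same number of hours were included here, so that time in Dox and time in culture cannot be told apart, and XEN cells differ from the inducible cells in strain and origin as well as in stage.

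Collagen chains are modified in the endoplasmic reticulum before they leave the cell. Prolyl 4-hydroxylase, made of P4ha subunits and the shared beta subunit P4hb, hydroxylates prolines and so stabilises the collagen helix. The Plod enzymes hydroxylate lysines, Colgalt1 adds galactose to the hydroxylysines, and Serpinh1, also called HSP47, binds the folded helix and accompanies it toward the Golgi. The hydroxylases need oxygen, iron, 2-oxoglutarate and ascorbate. Primitive endoderm (PrE) and the parietal endoderm derived from it lay down a basement membrane rich in type IV collagen, a collagen that carries many hydroxylysines and sugars.

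The genes lie on 7 chromosomes in mm10: P4ha1 at chr10:59323296-59373304, P4ha2 at chr11:54100095-54131665, P4ha3 at chr7:100285520-100319699, Plod1 at chr4:147909753-147936767, Plod2 at chr9:92542223-92608428, Plod3 at chr5:136987019-136996648, Serpinh1 at chr7:99345376-99353239 and Colgalt1 at chr8:71610998-71624911. All 8 were annotated as protein coding in GENCODE M21. RefSeq promoters of the same build (GRCm38.p6), each running from 250 bases before the transcript start to 50 bases after it, were found for 7 of the 8 genes, and not for Plod2. The promoters of Serpinh1, P4ha1 and P4ha2, which rose most, and of P4ha3, which was not called at any time under the main settings, are shown 5′ to 3′ on the gene's strand. Capitals mark the letters of the hypoxia response element, ACGTG or alternatively the letters GCGTG on either strand, of which neighbouring matches may overlap. They lie at chr7:99353190-99353489 on the minus strand for Serpinh1, and on the plus strand at chr10:59323046-59323345 for P4ha1, chr11:54100674-54100973 for P4ha2, at a start inside the annotated gene, and chr7:100285270-100285569 for P4ha3.
Serpinh1: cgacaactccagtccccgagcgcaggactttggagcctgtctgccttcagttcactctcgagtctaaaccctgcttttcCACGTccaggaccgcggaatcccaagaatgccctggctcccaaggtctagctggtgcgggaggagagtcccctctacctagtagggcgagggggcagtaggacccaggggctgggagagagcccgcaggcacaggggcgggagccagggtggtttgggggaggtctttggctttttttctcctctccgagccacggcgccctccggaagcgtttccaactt
P4ha1: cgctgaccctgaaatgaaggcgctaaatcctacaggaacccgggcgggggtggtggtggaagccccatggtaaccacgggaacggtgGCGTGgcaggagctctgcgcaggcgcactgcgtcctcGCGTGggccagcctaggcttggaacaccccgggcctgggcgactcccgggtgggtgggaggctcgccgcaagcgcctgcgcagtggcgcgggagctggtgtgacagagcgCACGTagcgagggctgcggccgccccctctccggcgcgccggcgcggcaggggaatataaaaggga
P4ha2: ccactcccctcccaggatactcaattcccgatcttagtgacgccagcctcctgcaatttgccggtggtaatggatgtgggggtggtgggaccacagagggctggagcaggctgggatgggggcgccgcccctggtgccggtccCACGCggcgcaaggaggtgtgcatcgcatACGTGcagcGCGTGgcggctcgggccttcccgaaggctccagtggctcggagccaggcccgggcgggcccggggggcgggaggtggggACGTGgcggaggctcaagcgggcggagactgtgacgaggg
P4ha3: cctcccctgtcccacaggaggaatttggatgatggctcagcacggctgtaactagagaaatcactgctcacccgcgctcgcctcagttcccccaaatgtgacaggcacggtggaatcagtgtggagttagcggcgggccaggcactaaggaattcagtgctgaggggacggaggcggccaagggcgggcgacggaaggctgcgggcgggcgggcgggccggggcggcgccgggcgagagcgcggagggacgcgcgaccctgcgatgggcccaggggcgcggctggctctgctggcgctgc

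The hypoxia letters stood 3 times in the P4ha1 promoter, 4 times in that of P4ha2, once in that of Serpinh1 and not at all in that of P4ha3. Among the promoters not shown, that of Plod1 held 2 matches, that of Plod3 held 4, and the 2 of Colgalt1 held 2 and 3. Of 32851 mouse promoters of this length, 43.8% held at least 1 such match and 8.93% held 3 or more. The members' promoters were 51.0% to 70.3% G and C, and no background matched on base composition was made. The GATA letters AGATAA, and likewise the letters TGATAA and those of the form AGATAG, searched on both strands, stood in none of the 8 promoter windows and in 25.1% of all promoters, and TGATAG, searched afterwards, stood in the Plod3 window and in 7.29% of all promoters. CCAAT was found in the Plod3 window and in 37.4% of all promoters. These matches describe 300 bases per gene and no binding was measured here.

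The groups carried the RNAs their labels imply. Gata6 lay at 0.193 to 0.375 TPM (a gene's length-corrected share of all transcripts in its library, scaled so that libraries have the same total) at 0h and at 129 to 139 TPM at 16h. Its TPM counts the endogenous gene and the inducible cassette together. The summed level of 10 PrE markers, Col4a1 among them, went from 70.6 to 82.9 TPM at 0h to 17690 to 18360 TPM at 168h, with 9088 to 9131 TPM in XEN cells. The summed level of 8 pluripotency markers went from 3498 to 3645 TPM to 91.9 to 167 TPM. RNAs on a list of fibroblast markers were also present, and the cells they came from were not determined. Of these markers, Dcn and Lum were below 1 TPM in every library of 96h and of XEN cells. The 16 fibroblast markers summed to 215 to 499 TPM at 0h, 241 to 510 TPM at 168h and 650 to 658 TPM in XEN cells. At 168h 7 of the 16 were called higher than at 0h (limma), Col3a1 by a log2 difference of 3.01 and Twist1 by 1.82 among them, and S100a4 was called lower (-1.84). Over all genes 22.6% were called higher at 168h and 2491 of 15057 lower. The median log2 difference of the 16 markers was 0.93, against 0.09 for all genes. In XEN cells 4 of these markers were called higher than at 0h, against 18.9% of all genes. Within the Dox groups, however, the libraries numbered 3 stood apart. Thy1, a fibroblast surface marker, was at 13.4 to 34.9 TPM in them and at 1.198 to 4.75 TPM in libraries 1 and 2. At 72h the fibroblast sum was 578 TPM in library 3 and 131 and 148 TPM in the others, whereas at 24h it was 580 TPM against 530 and 437 TPM, and at 96h library 3 had the lowest sum, 252 TPM against 370 and 348 TPM. In 35 of 56 combinations of a member and a Dox group, libraries 1 and 2 were nearer to each other than to library 3. The part of these RNAs in the results was not tested, and members' calls that change without all these libraries are given beside the results or with the alternatives.

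Serpinh1 had the largest rise of the members at 16h, the first time sampled, and reached the highest level. It was at 40.4, 36.7 and 51.3 TPM before Dox and at 519, 506 and 580 TPM at 16h. At 168h it reached 5150, 4599 and 4858 TPM, and both XEN libraries lay at 3167 and 3238 TPM. No library of any Dox time came near those of 0h, and each time lay above the one before it without overlap. The rise was 3.62 ± 0.12 on the log2(TPM + 1) scale (± SE, limma adjusted p = 6.91e-14) at 16h, the 14th largest of 15057 genes tested, and 6.81 ± 0.12 at 168h (adjusted p = 5.96e-19). Ordered by mean level, Serpinh1 stood at position 3162 of 44853 genes at 0h, at 248 at 16h and at 15 at 168h. XEN cells and 96h cells were not separated, since the 96h libraries spanned 3013 to 3204 TPM.

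**Figure D1:**
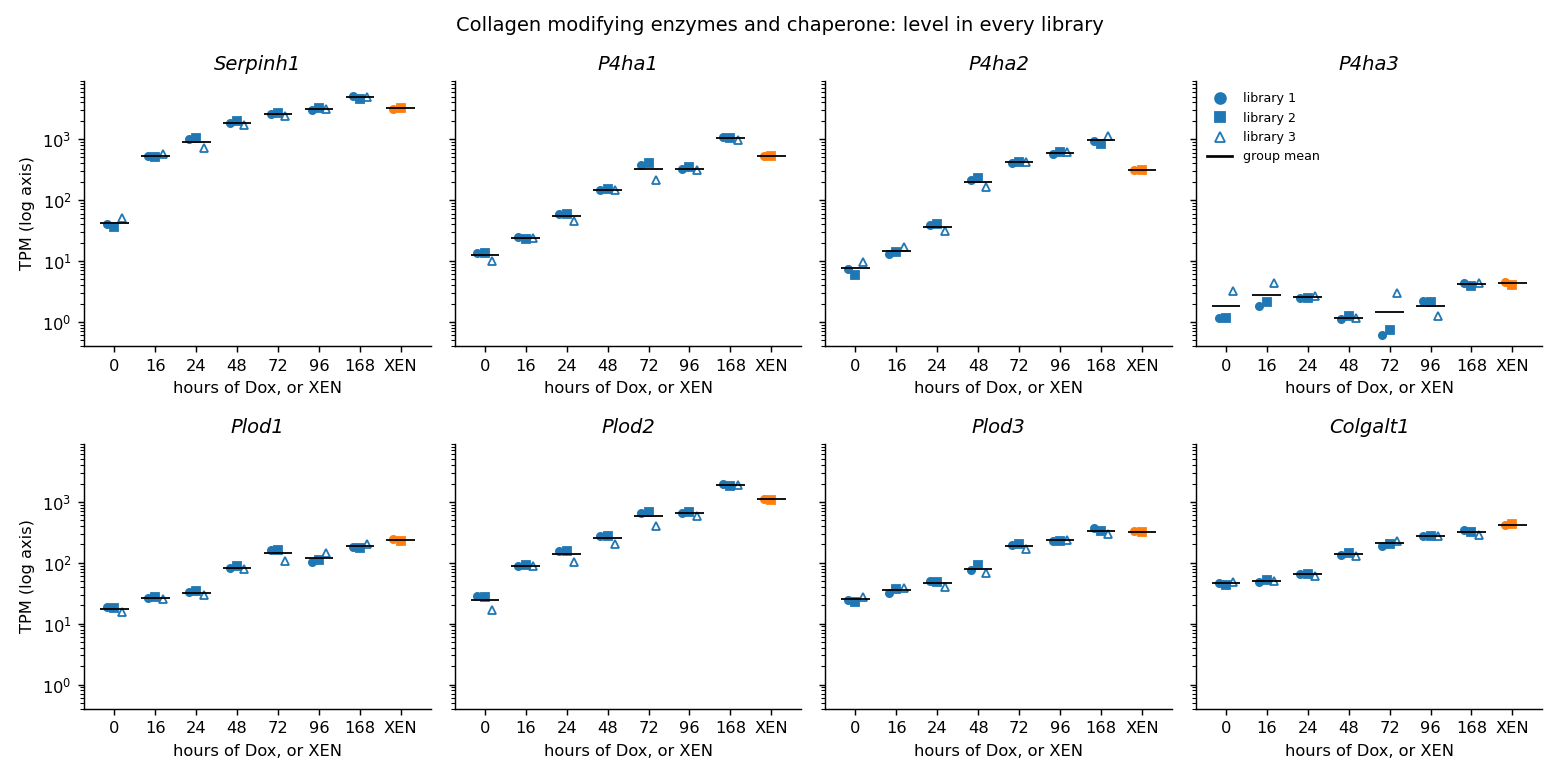
TPM of the 8 genes in each of the 23 induction libraries on a log axis, against hours of Dox and XEN cells (orange), with circles, squares and open triangles for libraries 1, 2 and 3 and a bar at the group mean. Serpinh1 lay at 506 TPM or more in every library from 16h on, while P4ha3 reached 4.53 TPM at most.

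Of the prolyl 4-hydroxylase subunits, P4ha1 and P4ha2 rose by the largest factors and P4ha3 stayed at 4.53 TPM or less in every library. P4ha1, the widely expressed subunit, was at 13.7, 13.7 and 9.81 TPM at 0h, at 24.8, 23.1 and 23.7 TPM at 16h and at 1068, 1049 and 975 TPM at 168h. P4ha2 was at 7.504, 5.85 and 9.67 TPM at 0h, at 13.1, 14.0 and 17.0 TPM at 16h and at 944, 842 and 1107 TPM at 168h. For both genes the 3 libraries of 16h lay above those of 0h, and those of 168h lay above every other group. P4ha1 was 6.28 ± 0.17 higher at 168h than at 0h (limma adjusted p = 1.59e-16) and P4ha2 was 6.81 ± 0.15 higher (adjusted p = 6.68e-18), both as log2 differences. At 16h their differences were 0.91 ± 0.17 and 0.87 ± 0.15, with adjusted p of 9.90e-04 and 3.13e-04, under the minimum of 1 set for a call. Without 0h library 3, the P4ha2 difference at 16h was 1.03 and was called. P4ha3 was at 1.17, 1.15 and 3.23 TPM at 0h and at 4.396, 3.88 and 4.38 TPM at 168h. Its difference at 168h was 0.95 ± 0.30 (limma adjusted p = 0.00847), again under the minimum, and without 0h library 3, which was the highest of its group, it was 1.27 and was called. It was also called without all libraries numbered 3 (1.25, limma adjusted p = 3.48e-07) and with a pseudocount of 0.1 (1.31, adjusted p = 0.0139). Between 16h and 96h no P4ha3 difference from 0h passed the test (adjusted p from 0.369 to 0.892). This depended on the libraries numbered 3. Without them P4ha3 was higher at 16h (0.45, limma adjusted p = 0.00931), 24h (0.70, 2.5e-04) and 96h (0.54, 5.87e-04). In that fit it was lower at 72h (-0.37, limma adjusted p = 0.00817) and not different at 48h (adjusted p = 0.919). All of these lay under the fold minimum. P4ha3 is nonetheless in the siRNA table, which the authors limited to genes they found responsive to GATA6 in these induction libraries.

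The lysyl hydroxylases all rose, and Plod2 rose the most of them both at 16h and at 168h. Plod2, which hydroxylates lysines of the collagen telopeptides, was at 28.3, 27.7 and 16.9 TPM at 0h, at 87.9, 91.6 and 87.3 TPM at 16h and at 1948, 1849 and 1904 TPM at 168h. Its log2 difference from 0h was 1.86 ± 0.20 at 16h (limma adjusted p = 1.91e-06) and 6.27 ± 0.20 at 168h (adjusted p = 1.41e-15). Plod1, which acts mainly on lysines of the helix, was at 18.7, 18.0 and 15.7 TPM at 0h and at 181, 172 and 202 TPM at 168h, a log2 difference of 3.33 ± 0.14 (limma adjusted p = 4.57e-14). Plod3, which can also transfer sugars to hydroxylysine, was at 24.2, 22.7 and 27.9 TPM at 0h and at 379, 333 and 294 TPM at 168h, a log2 difference of 3.70 ± 0.12 (limma adjusted p = 2.10e-15). At 0h the Plod2 and Plod3 libraries overlapped, whereas at 168h the lowest Plod2 library was above the highest of Plod1 and Plod3. At 16h Plod1 and Plod3 were 0.57 ± 0.14 and 0.50 ± 0.12 higher on the log2 scale, past the p threshold (adjusted p of 0.00706 and 0.00864) and under the fold minimum.

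Colgalt1, which adds galactose to hydroxylysine, had the highest mean level at 0h and the smallest early change. It was at 46.1, 43.0 and 48.2 TPM at 0h and at 49.1, 51.8 and 50.6 TPM at 16h, a log2 difference of 0.14 ± 0.08 (limma adjusted p = 0.299, 95% interval -0.02 to 0.30). At 24h it lay at 65.8, 66.0 and 61.3 TPM and at 48h at 135, 145 and 131 TPM. The difference was first called at 48h, at 1.56 ± 0.08 (limma adjusted p = 6.95e-12), and reached 2.75 ± 0.08 at 168h (adjusted p = 3.02e-16), when the libraries held 348, 314 and 281 TPM. Its 2 XEN libraries, at 412 and 437 TPM, were the highest of all.

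Counted over the group, 2 of the 8 genes were called higher at 16h (Serpinh1 and Plod2), where 1.97% of the 15057 genes tested were called higher. At 24h P4ha1 and P4ha2 joined them, making 4 of 8, against 3.24% of all genes, and without the libraries numbered 3 Plod3 was called there too (1.05, limma adjusted p = 3.16e-06). From 48h on it was 7 of 8 at each time, all except P4ha3, where the share of all genes called higher was 9.14% at 48h, 14.7% at 72h, 15.4% after 96h and 22.6% after 168h. None was called lower at any time. The median log2 difference of the 8 genes was 0.72 at 16h and 4.98 at 168h, where the median of all genes tested was 0.02 and 0.09. At 16h, before most of these differences reached the fold minimum, the 3 libraries of 7 members, again all except P4ha3, already lay above the 3 libraries of 0h. This held for 19.4% of all genes.

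Between successive times the set of members called differed from step to step, and these sets overlapped. Members not called could still change: from 24h to 48h and from 96h to 168h all 8 had an unadjusted limma p under 0.05. The share of all genes under that unadjusted threshold was not counted. With a limma adjusted p under 0.05 and no fold minimum, 2637 of 15057 genes were higher and 3008 lower from 24h to 48h. From 96h to 168h these were 3991 and 2441. From 16h to 24h P4ha1 and P4ha2 were called, by 1.13 ± 0.17 and 1.27 ± 0.15 on the log2 scale, where 0.232% of all genes were called higher. From 24h to 48h 5 members were called (P4ha1, P4ha2, Plod1, Serpinh1 and Colgalt1), against 3.12% of all genes. The largest of these steps was that of P4ha2, from 38.5, 40.4 and 31.4 TPM to 212, 227 and 165 TPM, or 2.42 ± 0.15 on the log2 scale (limma adjusted p = 1.75e-09). The Serpinh1 step of 1.05 ± 0.12 was close to the minimum, and fell to 0.88 without 24h library 3, to 0.9955 without 48h library 2, and to 0.94 without the libraries numbered 3. From 48h to 72h 4 members were called (P4ha1, P4ha2, Plod2 and Plod3), against 1.95% of all genes. Here P4ha2 fell to 0.92 without 48h library 3 and to 0.91 without all libraries numbered 3, and P4ha1 to 0.98 and 0.93 without 72h library 1 or 2. From 72h to 96h none was called higher by limma, against 0.671% of all genes, and 4 of 8 had an unadjusted p under the threshold. Of these, Colgalt1, higher by 0.41 on the log2 scale (limma adjusted p = 0.00287), and P4ha2, higher by 0.53 (adjusted p = 0.0205), passed after adjustment, under the fold minimum. Over all genes, 1258 were higher and 1219 lower after adjustment at this step, without the fold minimum. From 96h to 168h P4ha1 and Plod2 were called, by 1.65 ± 0.17 and 1.56 ± 0.20, against 5.23% of all genes.

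The 72h group was the least even. P4ha1 was at 375 and 400 TPM in libraries 1 and 2 and at 212 TPM in library 3, and Plod2 was at 651, 693 and 401 TPM. Plod1 followed the same order, with 161, 163 and 108 TPM, and so did Serpinh1 over a narrower span, with 2606, 2694 and 2438 TPM. P4ha2, at 403, 422 and 421 TPM, did not. Ndrg1, Bnip3 and Egln1, picked from the hypoxia response genes described below, were low in the same library. The rest of that list is not given by library here. Ndrg1 was at 92.0, 91.0 and 6.78 TPM in the 3 libraries of 72h, Bnip3 at 266, 305 and 32.1 TPM and Egln1 at 86.5, 102 and 22.6 TPM. Library 3 also held the most fibroblast marker RNA of the group, and the part of either in the result was not tested. With all 3 libraries the P4ha1 difference between 96h and 72h was 0.05 ± 0.17 on the log2 scale (limma adjusted p = 0.866), and without the libraries numbered 3 it was -0.20 (adjusted p = 0.00685). In that fit Plod1 was also lower at 96h (-0.59, limma adjusted p = 7.93e-06). P4ha3 (0.91, adjusted p = 3.36e-05), P4ha2 (0.53), Colgalt1 (0.49) and Serpinh1 (0.23) were higher there. All of these lay under the fold minimum.

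Expressed as a share of each gene's own 0h to 168h change on the log2(TPM + 1) scale, the early response differed widely between members. At 16h Serpinh1 had made 53.2% ± 1.5 of its change (SD, n = 3), Plod2 29.7% ± 0.59, Plod1 17.2% ± 1.5, P4ha1 14.4% ± 0.78, Plod3 13.5% ± 4.1, P4ha2 12.8% ± 2.7 and Colgalt1 5.10% ± 1.4. The Serpinh1 and Plod2 libraries overlapped with those of no other member at 16h, and neither did those of Colgalt1. By 48h P4ha2 (66.9% ± 3.5) and Plod1 (65.6% ± 2.3) had passed Plod2 (53.5% ± 3.9), and Plod3 (43.6% ± 6.1) had made the smallest share. At 96h Colgalt1 (93.2% ± 0.40), Serpinh1 (90.5% ± 0.65) and P4ha2 (90.1% ± 0.63) had the highest means, whereas P4ha1 (73.8% ± 1.2) and Plod2 (75.1% ± 1.8) had the lowest means. P4ha3 is left out of this measure because its change was not called. The shares are descriptions and were not tested.

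**Figure D2:**
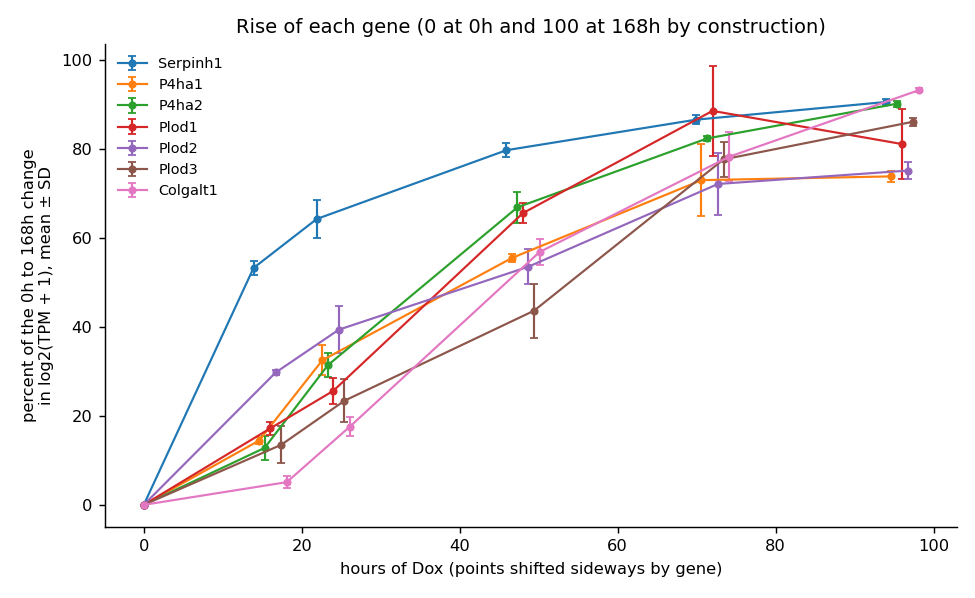
Share of the 0h to 168h change in log2(TPM + 1) reached at each time in Dox by the 7 members called higher at 168h, as mean and SD of 3 libraries, with 0h at 0 by construction. Serpinh1 stood at 53.2% at 16h and Colgalt1 at 5.10%, and at 96h P4ha1 and Plod2 had the lowest means of the 7.

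Because TPM is corrected for length, levels can be compared between genes, and the make-up of both hydroxylase families changed. The summed P4ha level went from 21.9 ± 1.1 TPM at 0h to 1999 ± 98 TPM at 168h and was 845 ± 8.2 TPM in XEN cells. P4ha1 held 56.9% ± 12 of it at 0h and 57.8% ± 0.96 at 24h. At 48h it held 42.4% ± 3.5 and P4ha2 held 57.3% ± 3.6, and at 96h the shares were 35.3% ± 1.5 and 64.5% ± 1.5. The ranges of both genes did not overlap at 48h, 72h or 96h. At 168h they overlapped again, P4ha1 at 51.7% ± 4.5 and P4ha2 at 48.1% ± 4.5, and in XEN cells P4ha1 led with 62.6% ± 0.23. P4ha3 made 8.33% ± 5.1 of the sum at 0h and 0.211% ± 0.0067 at 168h, although its own level was not lower. In the Plod family Plod2 went from 36.1% ± 7.0 of the summed level at 0h to 58.9% ± 1.3 at 16h, changed little up to 96h (64.6% ± 3.5) and reached 78.5% ± 0.83 at 168h, with 66.2% ± 0.14 in XEN cells. The summed Plod level rose over the same time from 66.7 ± 5.5 to 2421 ± 79 TPM. Plod1 went from 26.2% ± 0.22 to 7.64% ± 0.67 and Plod3 from 37.8% ± 7.3 to 13.8% ± 1.4, although both rose in level.

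**Figure D3:**
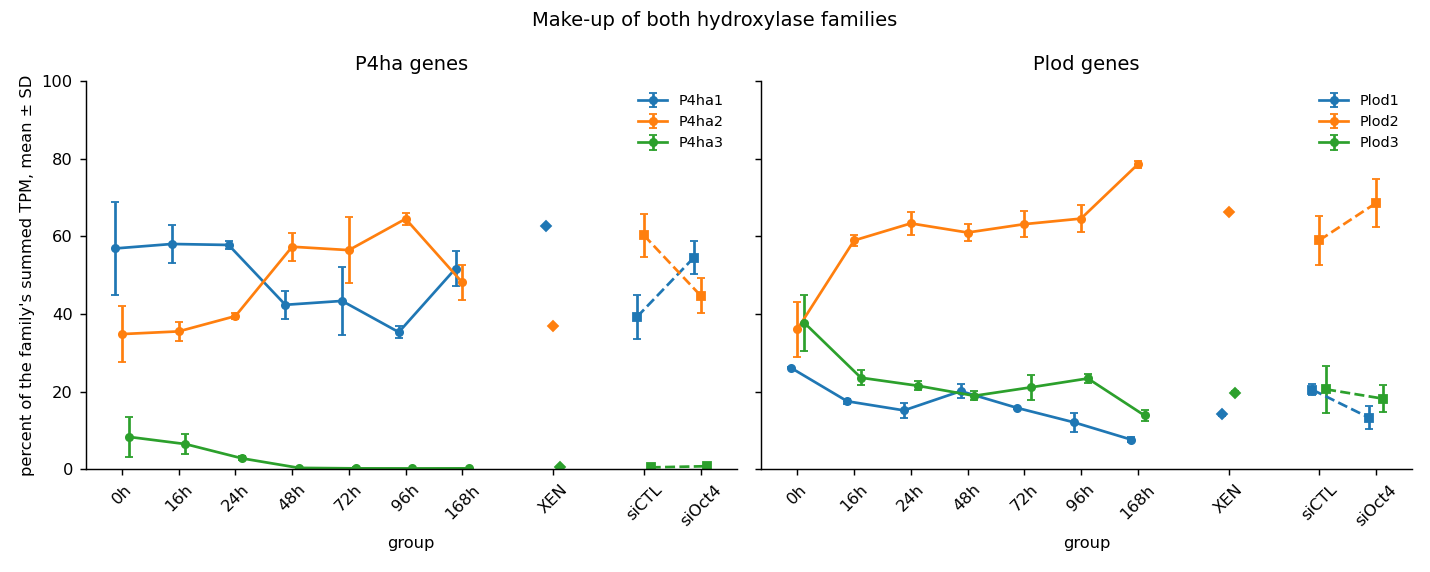
Percent of the summed P4ha TPM (left) and Plod TPM (right) held by each gene, as mean and SD of the libraries of each group (3 per Dox time, joined by lines, 2 for XEN cells as diamonds, 6 per siRNA group as squares). P4ha2 led from 48h to 96h and in siCTL, P4ha1 led up to 24h, in XEN cells and in siOct4, and Plod2 led from 16h on.

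The client of these enzymes also changed. The 44 collagen chain genes summed to 285 ± 38 TPM at 0h, of which Col4a1 and Col4a2, the main chains of type IV collagen, made 5.97% ± 0.36. At 168h the sum was 11940 ± 185 TPM and both chains made 96.8% ± 0.77 of it. Set against the chaperone, there were 6.69 ± 0.40 collagen TPM for each Serpinh1 TPM at 0h, 0.915 ± 0.014 at 16h and 0.825 ± 0.093 at 24h, then 1.36 ± 0.083 at 72h and 2.46 ± 0.10 at 168h. Within the Dox series the ratio was thus lowest from 16h to 48h. For Col4a1 and Col4a2 alone the ratio was close to level at first, being 0.399 ± 0.013 before Dox, then 0.353 ± 0.015 at 16h and 0.468 ± 0.0013 at 24h, and it was 2.38 ± 0.098 in 168h cells. The other chains made most of the collagen sum at 0h, and some of them, such as Col1a1 (12.7 to 27.6 TPM at 0h), are on the fibroblast list, whose part in this ratio was not tested. XEN cells had 0.621 ± 0.0043 collagen TPM per Serpinh1 TPM. Their Col4a1 level was 1130 and 1156 TPM, against 7559 to 7905 TPM at 168h, a log2 difference of -2.75 ± 0.15 (limma adjusted p = 3.63e-11).

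**Figure D4:**
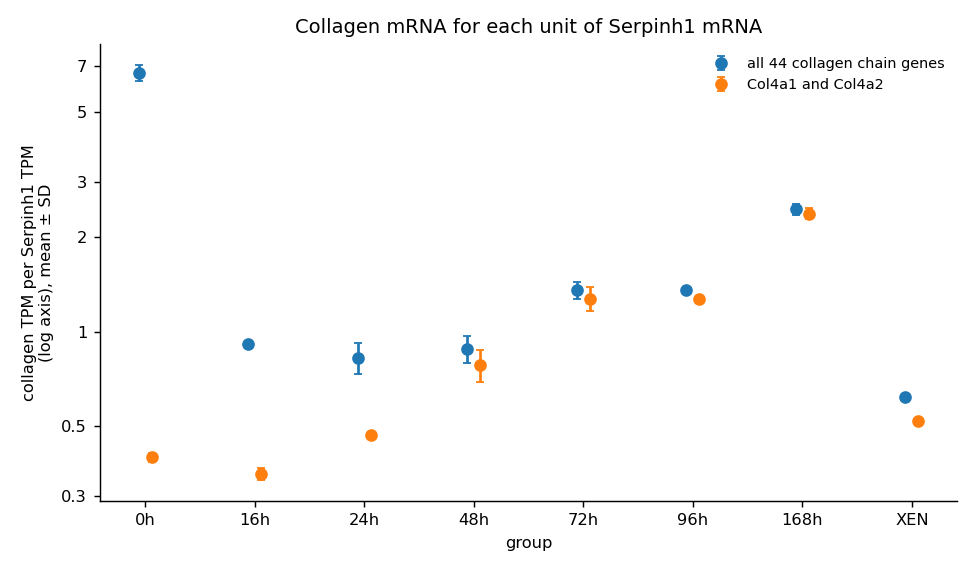
Collagen TPM per Serpinh1 TPM on a log axis in each induction group, for all 44 collagen chain genes and for Col4a1 and Col4a2, as mean and SD of 3 libraries (2 for XEN cells). The ratio over all chains was 6.69 at 0h, under 1 from 16h to 48h and 2.46 at 168h, and XEN cells lay at 0.621.

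XEN cells carried the same 7 genes at high levels, though not in the same proportions as 168h cells. Against 0h, 7 of 8 members were called higher in XEN cells, again all but P4ha3, where 18.9% of all genes were. P4ha3 was called as well, making 8 of 8, without 0h library 3 (1.2977, limma adjusted p = 0.00202), without XEN library 2 (1.03, adjusted p = 0.0483), without all libraries numbered 3 (also 1.2977, adjusted p = 2.57e-07) or with a pseudocount of 0.1 (1.34, adjusted p = 0.0238). Against 168h, P4ha2 was the one member called lower, at 312 and 311 TPM, a log2 difference of -1.62 ± 0.16 (limma adjusted p = 1.67e-07), where 9.17% of all genes were called lower. P4ha1, at 534 and 524 TPM, was lower by a log2 difference of -0.96 ± 0.19 (limma adjusted p = 3.59e-04), which missed the fold minimum of 1 by so little that it was called without 168h library 3 (-1.0002). Plod2 (-0.79, limma adjusted p = 0.00624) and Serpinh1 (-0.60, adjusted p = 0.00101) were also lower past the p threshold and under the fold minimum, and Colgalt1 was higher (0.44, adjusted p = 4.22e-04). Plod3, at 327 and 324 TPM, overlapped with 168h and differed by -0.03 (95% interval -0.32 to 0.25). Plod1 differed by 0.34 (limma adjusted p = 0.0721). The median gene differed by -0.14 in this comparison. After rescaling by the median of ratios, which brought that to -0.02, Plod1 was higher by 0.51 (limma adjusted p = 0.00534), under the fold minimum. In the same fit P4ha1 differed by -0.79 and P4ha2 by -1.45. P4ha1 and P4ha2 thus stood in the order P4ha1 over P4ha2 in both XEN libraries, as they did in 2 of 3 libraries at 168h and in none at 96h.

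In the siRNA series the knockdown was visible in every library: Pou5f1, the gene of Oct4, spanned 782 to 1194 TPM in siCTL and 282 to 387 TPM in siOct4, without overlap and lower in 6 of 6 pairs. The table holds only genes the authors found to respond to GATA6 in the induction libraries, so its background is not the whole transcriptome. Same-numbered libraries deviated together from their group means in all 6 pairs, and results are therefore also given with the pair as a block. Only in pair 3, however, did each library deviate most like its own number. Libraries 2 and 5 of siCTL and libraries 1, 4 and 6 of siOct4 were nearer to a library of another number. The check thus does not single out the partners of the other pairs. P4ha2 spanned 207 to 438 TPM in siCTL, with a median of 246, and 94.0 to 259 TPM in siOct4, with a median of 165. Plod1 spanned 90.9 to 172 TPM in siCTL, with a median of 102, and 58.1 to 94.0 TPM in siOct4, with a median of 67.0. Both were lower in siOct4 in 6 of 6 pairs, and in both the groups overlapped. P4ha2 differed by -0.78 ± 0.24 on the log2 scale (limma adjusted p = 0.112) and Plod1 by -0.65 ± 0.17 (adjusted p = 0.0626), so that without the block no member was called by limma (2 had an unadjusted p under 0.05), against 1.72% of 6264 genes called lower. With the pair as a block both were called lower, P4ha2 with an adjusted p of 0.00552 and Plod1 with 0.0042, against 6.15% of all genes.

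The blocked calls of P4ha2 and Plod1 held with each pair left out in turn (adjusted p from 0.0036 to 0.023 for P4ha2 and from 0.00752 to 0.0174 for Plod1). Consecutive libraries (1 and 2, 3 and 4, 5 and 6) were the closest pairs within their group in all cases but 3 and 4 of siCTL, and with each of these averaged the blocked adjusted p were 0.0394 for P4ha2 and 0.0496 for Plod1, whereas without the block they were 0.589 and 0.417. The median gene of the table was lower in siOct4 by a log2 difference of -0.12. After rescaling by the median of ratios, which brought that to 0.01, P4ha2 differed by -0.62 (limma without the block, adjusted p = 0.299). Plod1 differed by -0.49 (adjusted p = 0.206) in the same fit. Removing the trend with gene length brought the median to -0.0062. With that and the block, P4ha2 differed by -0.63 (limma adjusted p = 0.0112) and Plod1 by -0.50 (adjusted p = 0.0084).

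The other 6 members were not called in siOct4 with or without the block. Serpinh1 differed by -0.12 ± 0.12 (95% interval -0.37 to 0.14), P4ha1 by 0.13 ± 0.16 (-0.22 to 0.48), Plod2 by 0.22 ± 0.26 (-0.33 to 0.76), Colgalt1 by -0.21 ± 0.18 (-0.59 to 0.17), Plod3 by -0.16 ± 0.25 (-0.70 to 0.38) and P4ha3 by 0.15 ± 0.40 (-0.70 to 1.01), all as log2 differences without the block. Serpinh1 was lower in 5 of 6 pairs and P4ha1 and Plod2 were each higher in 5 of 6. The 7 fibroblast markers in the table summed to 83.3 to 439 TPM in siCTL and 93.0 to 553 TPM in siOct4, so that the groups overlapped. Markers of several cell types also differed. The 10 PrE markers summed to 2991 to 8026 TPM in siCTL and 2151 to 4288 TPM in siOct4, with 4 of the 10 called lower by limma with the block, and 3 of 5 visceral endoderm markers were called lower as well. With the block 6.15% of all genes in this series were called lower and 152 of 6264 higher. Of 5 parietal endoderm markers, Plat was called higher (1.25, limma adjusted p = 0.01) and Srgn lower (-1.31, adjusted p = 2.25e-05), and of 4 trophoblast markers Hand1 (1.54, adjusted p = 0.0233) and Tfap2c (1.11, adjusted p = 0.00112) were called higher. Without the block, limma called none of the PrE or trophoblast markers (5 and 3 had an unadjusted p under 0.05), 2 visceral markers lower, and 1 parietal marker in each direction. Of 6264 genes, 59 were called higher and 108 lower in that fit. Gata6 spanned 92.6 to 199 TPM in siCTL and 51.2 to 130 TPM in siOct4, lower in 6 of 6 pairs and by -0.50 on the log2 scale (limma adjusted p = 0.326 without the block). These values count the endogenous gene and the inducible cassette together. The study measured the endogenous gene apart, by a 5′ untranslated region that the cassette lacks. The part of these markers and of Gata6 in the results was not tested, and fewer cells of a type and less RNA per cell cannot be told apart in bulk samples.

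**Figure D5:**
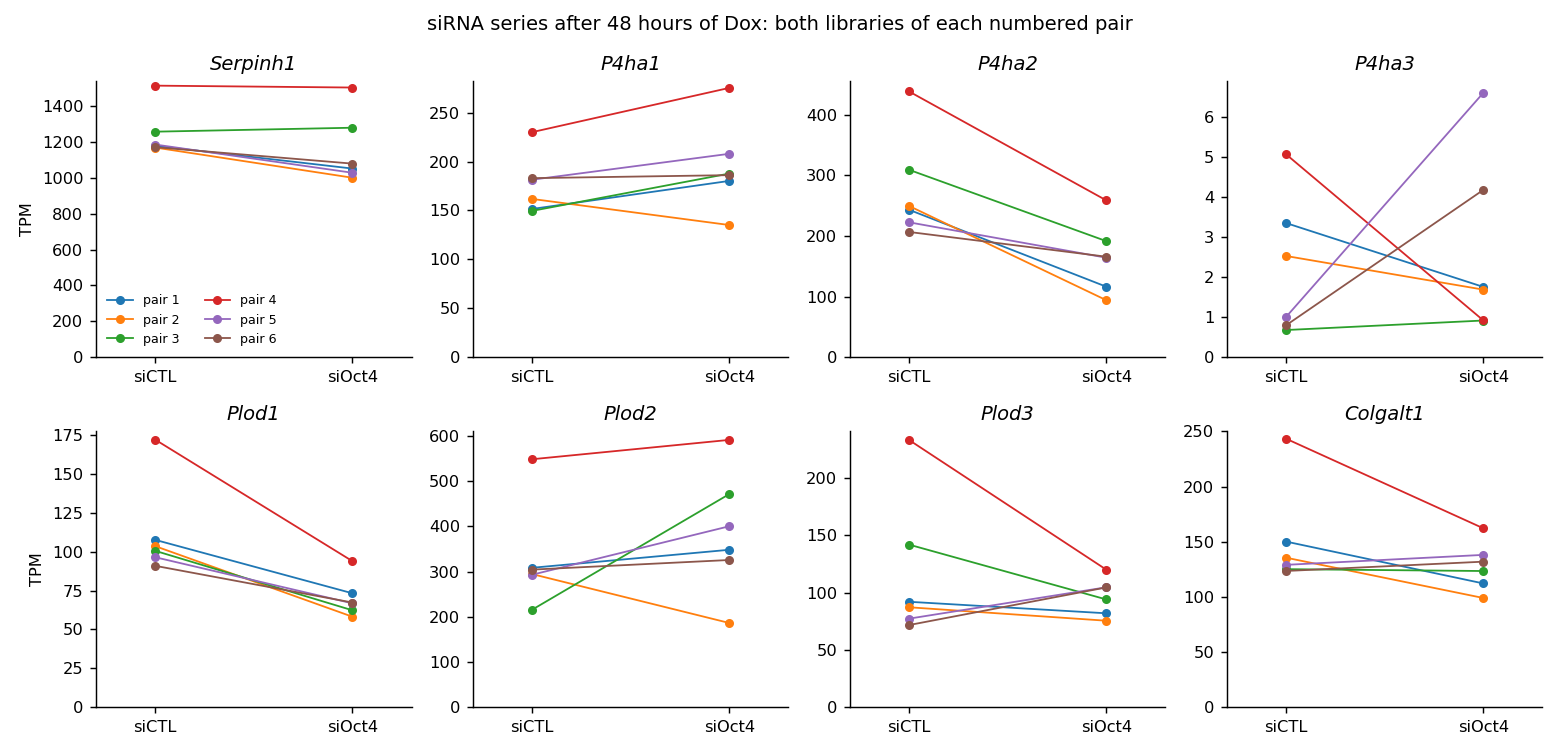
TPM of the 8 genes in the siRNA series after 48 hours of Dox, with a line joining the siCTL and siOct4 libraries of each numbered pair and the axes starting at 0. P4ha2 and Plod1 were lower in siOct4 in all 6 pairs, while P4ha1 and Plod2 were higher in 5 of 6.

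The make-up of both families differed between the siRNA groups. P4ha2 held 60.3% ± 5.6 of the summed P4ha level in siCTL (52.9% to 67.3%) and 44.7% ± 4.5 in siOct4 (39.0% to 50.4%), with no overlap. P4ha2's share thus differed by -15.5 percentage points, lower in 6 of 6 pairs (exact permutation test, two-sided, p = 0.00216, the smallest this design allows, adjusted p = 0.00649 over 6 such tests, with an exact test over pairs at p = 0.0312, also the smallest possible, and 0.0625 after adjustment). P4ha1 took 39.3% in siCTL and 54.5% in siOct4. Plod1 held 20.5% ± 1.4 of the summed Plod level in siCTL and 13.3% ± 2.9 in siOct4, a difference of -7.20 points (exact permutation p = 0.00433, adjusted p = 0.00866), again in 6 of 6 pairs, and the exact test over pairs gave p = 0.0312, or 0.0625 after adjustment. Plod2 held 59.0% and 68.6% (exact permutation p = 0.0195, adjusted p = 0.0292), higher in 5 of 6 pairs, and its exact test over pairs gave p = 0.0938, or 0.141 after adjustment. The shares of Plod3 and P4ha3 gave exact p of 0.435 and 0.333. Leaving out any 1 library did not carry the exact p of P4ha1, P4ha2, Plod1 or Plod2 past 0.05. These tests count each library separately, although consecutive libraries were close to each other.

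Most other genes of collagen modification, folding and secretion were also higher at 168h. Of 19 tested, 1 was called higher at 16h, 11 higher and 1 lower at 48h, and 16 higher at 168h, when none was called lower and the median log2 difference was 2.27. The shares of all genes called higher at these times were 1.97%, 9.14% and 22.6%. P3h2, a prolyl 3-hydroxylase, spanned 0.0203 to 0.173 TPM at 0h and 61.8 to 81.0 TPM at 168h, a log2 difference of 6.01 ± 0.19 (limma adjusted p = 1.04e-15). Creb3l2, a transcription factor of secretory cells and the one gene of this list called at 16h, rose by 5.32 ± 0.13 at 168h, and P3h4, a partner of the lysyl hydroxylases, by 3.58 ± 0.14. Creb3l1, a related factor that acts on collagen genes, rose by 3.72 ± 0.20, from 2.34 to 3.38 TPM at 0h to 48.1 to 59.3 TPM at 168h, and was at 0.870 and 1.32 TPM in XEN cells. It was also the one gene of the list called in siOct4 without the block, from 7.40 to 26.2 TPM in siCTL to 1.32 to 4.85 TPM in siOct4, a log2 difference of -1.75 (limma adjusted p = 0.00503), with no overlap. With the block, Sec24d, a coat protein of collagen export, was called lower as well, its log2 difference being -0.53 (limma adjusted p = 0.0162). The 3 genes not called at 168h were Tmem38b, Mia2 and Fkbp10. Fkbp10, a collagen prolyl isomerase, spanned 18.2 to 22.9 TPM at 0h, 7.16 to 11.8 TPM at 48h and 19.0 to 21.0 TPM at 168h, and was the gene called lower at 48h (log2 difference -1.04, limma adjusted p = 9.09e-05).

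General endoplasmic reticulum chaperones were called higher at 168h throughout. None of 16 was called at 16h (limma, 11 with an unadjusted p under 0.05), 11 were called higher at 48h and all 16 at 168h, with a median log2 difference of 2.0019, where that of the 8 members was 4.98. The shares of all genes called higher were 9.14% at 48h and 22.6% at 168h. At 168h the rises were led by Dnajc3 (3.19 ± 0.15), Pdia3 (2.84 ± 0.09), Calr (2.55 ± 0.14) and Dnajb11 (2.38 ± 0.25), of which the first 2 values are above that of Colgalt1 (2.75). None was called in siOct4 by limma with or without the block (0 had an unadjusted p under the threshold without it).

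Enzymes that process or cross-link collagen outside the cell did not move together. Of 14 tested, 5 were called higher and 3 lower at 168h, with a median log2 difference of 0.09, the same as that of all genes. Over all genes 22.6% were called higher and 2491 of 15057 lower. Loxl2, a lysyl oxidase that cross-links type IV collagen, went from 3.06 to 4.28 TPM at 0h to 578 to 626 TPM at 168h, a log2 difference of 7.07 ± 0.44 (limma adjusted p = 2.90e-11), with 4.33 ± 0.68 TPM at 16h. Sparc, a collagen-binding matrix protein, rose by 7.02 ± 0.23 and Pxdn, a peroxidase that forms sulfilimine cross-links in type IV collagen, by 5.55 ± 0.13. Adamts14, which trims fibrillar procollagen, fell by 3.04 on the log2 scale, from 9.17 ± 2.6 to 0.203 ± 0.035 TPM. None of the 10 of these genes in the siRNA table was called in siOct4 by limma, with or without the block (2 had an unadjusted p under 0.05 without it).

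Hypoxia response genes, among which P4ha1, P4ha2 and Plod2 are commonly counted but which were listed here without them, showed a mixed picture. Of 21 tested, 1 was called higher at 16h, 4 higher and 2 lower at 48h, and 8 higher and 2 lower at 168h, with median log2 differences of -0.21, 0.42 and 0.60. The shares of all genes called higher at these times were 1.97%, 9.14% and 22.6%. Of 15057 genes, 1093 were called lower at 48h and 2491 at 168h. At 168h Car12 (4.87 ± 0.19), Ndrg1 (2.95 ± 0.69), Egln1 (2.86 ± 0.34) and Vegfa (2.64 ± 0.16) led. From 96h to 168h, the step at which P4ha1 and Plod2 were called again, 6 of the 21 were called higher and none lower, with a median of 0.72, against 0.07 for all genes. At this step 5.23% of all genes were called higher. In XEN cells 8 of the 21 were called lower than at 168h and none higher, where 9.17% of all genes were called lower. Any part of the hypoxia response in the members' changes was not tested. Vegfa, the angiogenic ligand, was at 32.9 and 33.4 TPM in XEN cells, at 182 to 225 TPM at 168h and at 25.7 to 38.8 TPM at 0h. None of the 14 in the siRNA table was called in siOct4 by limma (2 had an unadjusted p under 0.05). Of 9 genes that supply ascorbate or 2-oxoglutarate, 3 were called higher at 48h, 72h and 96h by limma, against 9.14%, 14.7% and 15.4% of all genes. At 48h these were the dehydrogenase Idh1 (1.51), the glucose and dehydroascorbate transporter Slc2a3 (1.41) and Glud1 (1.14), which makes 2-oxoglutarate from glutamate. At 168h 1 was called higher, Slc2a3 by 1.16 ± 0.18, against 22.6% of all genes. From 96h to 168h Glud1 was called lower (-1.01, limma adjusted p = 5.69e-07), as were 368 of all 15057 genes. Of the 3 in the siRNA table, none was called without the block, and Glud1 was called lower with it, its log2 difference being -0.65 (limma adjusted p = 0.00666).

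Over the 23 induction libraries, the non-member genes whose log2(TPM + 1) followed each member most closely, among 7048 candidates, had Pearson correlations between 0.987 and 0.996, which are given as a description, since libraries of one group share their condition. Serpinh1 was nearest to Flrt3 (0.996), Gdpd5 and the endoderm factor Sox7. P4ha1 was nearest to Scube2 (0.995), the disulfide isomerase Txndc5 and Fut8. P4ha2 was nearest to Jcad (0.994), Ostc and Tram1, of which Ostc and Tram1 act at the translocon of the endoplasmic reticulum. Plod2 was nearest to Car12 (0.992), the retrieval receptor Kdelr3 and the laminin chain Lamc1. Plod1 was nearest to Bicc1 (0.992), Ppfibp1 and Ppic, Plod3 to Ilk (0.995), Mapkapk2 and Arf4, and Colgalt1 to Pla2g12b (0.993), Apmap and Fkbp2. No gene stood among the nearest 3 of more than 1 member.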

How the data were processed

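The authors trimmed paired-end stranded reads with cutadapt, used STAR for alignment (mm10) and RSEM for gene quantification, removed libraries that stood apart in a principal component analysis and deposited TPM. Tool versions and the annotation are not given in the sources used here. Depth is unknown, since TPM keeps no read number. The siRNA table was limited by the authors to genes responsive to GATA6 in these induction libraries, and their text classes and group means were not used. For the 60 symbols listed more than once, only the most highly expressed row was used.

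The members and gene lists were chosen with earlier results of these data known. limma 3.58.1 (R 4.3.3) was fitted to log2(TPM + 1) over genes whose mean reached 1 TPM in any group (15057 genes in the induction series, 6264 in the siRNA series), with Benjamini-Hochberg adjustment over all genes of a comparison. A gene was called at an adjusted p under 0.05 and an absolute log2 difference over 1, or over 0.5 for siRNA. Fold changes on this scale understate those of low genes. The fits were tested on simulated data. Family shares were compared by exact permutation (scipy 1.17.1).

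Named genes were all members, the 4 called genes of each list with the largest change at 168h that reached 5 TPM, list genes called in siOct4, and the 3 genes most like each member. Others named in the text (Fkbp10, Mia2, Tmem38b, Gata6, Thy1, Col1a1, Col3a1, Twist1, S100a4, Bnip3, Idh1 and markers named beside siOct4) were chosen after their values were seen. The study's methods describe replicates as independent and the labels name no cultures, so p-values measure the spread between these libraries, which may be partly technical. Same-numbered siRNA libraries deviated together (correlation of deviations 0.236 to 0.707 in 6 of 6 pairs), so the pair was also fitted as a block. The pairing comes from the numbers in the labels and this check. Only in pair 3, with the correlation of 0.707, did both libraries match their own number best. In the induction series 16 of 77 such correlations were over 0.1, and the numbers were not taken as pairs. Alternatives were another pseudocount (0.1), other filters, rescaling by the median of ratios, thresholds, a length correction, the block and leaving out each library.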

Additional observations from a re-analysis of the deposited data

Results flagged for a closer look

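Library 4 of siCTL stood apart from the other 5 of its group for 3 members. Its log2(TPM + 1) was 7.437 for Plod1, where the others spanned 6.523 to 6.764, 10.56 for Serpinh1 (others 10.19 to 10.3) and 7.933 for Colgalt1 (others 6.958 to 7.239). In each case the gap to the nearest library, divided by the range of the group, was over Dixon's critical value for 6 samples. Of 28 sets of libraries screened, these 3 were past it, where chance would give about 1.4 if the sets were independent. They were not independent, since the sets share libraries and all 3 flags come from the same library. Without this pair, Plod1 differed between siOct4 and siCTL by -0.60 on the log2 scale with the block (limma adjusted p = 0.00945).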

How the results depend on the processing

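The rise of 7 members from 48h on kept its direction and call under every alternative run. Without the fold minimum, members called higher numbered 6 at 16h, 7 at 24h, 4 from 16h to 24h, 7 from 48h to 72h, 2 from 72h to 96h and 7 from 96h to 168h, and in XEN cells against 168h 1 was called higher and 4 lower. In that fit 1191 of all 15057 genes were called higher at 16h and 2511 at 24h. From 16h to 24h it was 248 of them, and from 48h to 72h 2455. From 72h to 96h it was 1258, and from 96h to 168h 3991. In XEN cells against 168h, 2676 of all genes were called higher and 4849 lower. With a replicate block P4ha3 was also called in XEN cells against 0h (1.10, limma adjusted p = 0.00438). Lower calls in XEN cells against 168h numbered 2 with a replicate block or without the libraries numbered 3 (an alternative chosen after seeing the data), and 1 to 2 with single libraries left out. Over all 15057 genes, 1410 were called lower there with the block and 1370 without those libraries. In siOct4, 2 members were called lower with the replicate block, also with the length trend removed, without any pair and with consecutive libraries averaged (the latter 2 chosen after seeing the data), and 0 to 1 with single libraries left out.

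Directions that turned were mostly those of P4ha3, none of them called. Its log2 difference was 0.0073 from 16h to 24h and -0.0445 from 48h to 72h with a pseudocount of 0.1, and 0.25 and -0.38 without the libraries numbered 3, where it was 0.0156 at 48h against 0h. In the blocked siOct4 fit it was -0.20 without pair 5 and -0.12 without pair 6, and Plod3 was 0.0023 without pair 4. P4ha1 differed by -0.20 from 72h to 96h without the libraries numbered 3. After median-of-ratios rescaling Plod3 differed by 0.13 between XEN cells and 168h, and Serpinh1 by 0.037 in siOct4. With single libraries left out, P4ha3 spanned -0.19 to 0.27 from 16h to 24h, -0.48 to 0.0083 at 48h, -0.69 to 0.056 at 72h, -0.38 to 0.29 from 48h to 72h, -0.11 to 0.38 at 96h, -0.0351 to 0.0852 in XEN cells against 168h and -0.0947 to 0.37 in siOct4. Plod3 spanned -0.12 to 0.0567 in XEN cells against 168h and -0.27 to 0.0675 in siOct4, and from 72h to 96h P4ha1 spanned -0.24 to 0.22 and Plod2 -0.0597 to 0.33. The cause was not tested.

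Without P4ha3 in the sum, P4ha1 held 59.4% at 24h and 62.9% in XEN cells, and P4ha2 38.0% at 16h and 40.6% at 24h. With Col4a1 and Col4a2 only, collagen per Serpinh1 was 0.399 before Dox, 0.353 after 16h and 0.468 after 24h of it, then 0.782 at 48h, 1.27 for 96h cells and 0.518 in XEN cells. In the siRNA series, calls over all genes numbered 59 higher and 108 lower, 144 and 153 after median-of-ratios rescaling, and 152 and 385 with the block. Depth could not be assessed from TPM, and low genes such as P4ha3 are the least certain.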
